A study of Mus musculus with 2 samples.

Results

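The BCL2 family decides whether a cell keeps its mitochondria intact or commits to apoptosis, and 10 of its genes were examined here for H3K4me3, a histone mark found at the starts of genes that are transcribed or poised for it. The 10 genes, Bcl2, Bcl2l1, Mcl1, Bax, Bak1, Bid, Bad, Bcl2l11, Pmaip1 and Bbc3, were taken by symbol from GENCODE vM21, the annotation of GRCm38, and all 10 were found among its 21951 protein-coding genes. For each gene, every peak that overlapped the gene body or lay within 1000 bp of any of its transcript starts was taken.

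The peaks came from lung group 2 innate lymphoid cells (ILC2s), sorted as CD45+ Lin- ST2+ cells from the offspring, and each library was made from about 3000 cells. The mark was profiled by CATCH-seq, a ChIP-seq for small cell numbers that cuts unfixed chromatin with micrococcal nuclease (MNase). Mothers of the first group were sensitised with alum in PBS on days -21 and -7, mated with untreated males, and given PBS through the nose from gestation day 4 to day 17, and they are called control mothers. Mothers of the second group received 100 µg ovalbumin (OVA) with the alum on the same days and doses of 500 µg OVA through the nose at intervals over the same part of gestation, and they are called asthmatic mothers. The study's methods name C57BL/6J as its wild-type strain. Offspring were adults, given as 8 weeks of age by the sample labels and as a range around it by the protocol, and the labels name no treatment of the offspring themselves. There was 1 library per group, and the study's text gives 1 pregnant dam per group for these data, so maternal treatment, dam and library cannot be told apart. The groups were therefore compared by their values alone, without replicates or tests.

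Proteins of this family act at the outer mitochondrial membrane. Guardians (BCL2, BCL-XL and MCL1, the products of Bcl2, Bcl2l1 and Mcl1) hold the effectors BAX and BAK (Bax and Bak1) in check, and the BH3-only proteins BIM, NOXA, PUMA, BID and BAD (Bcl2l11, Pmaip1, Bbc3, Bid and Bad) bind guardians or activate effectors when a cell is stressed or deprived of growth factors. Lymphocytes that live on cytokines such as IL-7 are known to depend on BCL2 and MCL1, and loss of such cytokines is known to raise BIM and PUMA through FOXO factors.

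The sequences before the starts of 6 transcripts are shown first, because the results turn on whether the genes carried a start peak in both lists or in one. They are RefSeq sequences on GRCm38.p6, written 5′ to 3′ on the strand of the gene, each the 150 bases that end just before the RefSeq start, and capitals mark GC boxes (GGGCGG, or CCGCCC for the other strand). The starts shown for Bcl2, Mcl1 and Bax had a peak within 1000 bp in both lists, and those of Bcl2l11 in the list of the offspring of control mothers alone. The start shown for Bbc3, that of a coding transcript, had no peak within 1000 bp in either list, since the only start peak of Bbc3 lay at another of its starts.
Bcl2, chr1:106714291-106714440, minus strand: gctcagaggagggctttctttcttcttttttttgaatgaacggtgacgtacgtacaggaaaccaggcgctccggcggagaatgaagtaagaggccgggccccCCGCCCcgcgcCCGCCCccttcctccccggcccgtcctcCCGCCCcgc
Mcl1, chr3:95658571-95658720, plus strand: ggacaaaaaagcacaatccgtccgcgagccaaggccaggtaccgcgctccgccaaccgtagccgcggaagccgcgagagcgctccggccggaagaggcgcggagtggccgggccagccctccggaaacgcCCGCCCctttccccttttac
Bax, chr7:45466899-45467048, minus strand: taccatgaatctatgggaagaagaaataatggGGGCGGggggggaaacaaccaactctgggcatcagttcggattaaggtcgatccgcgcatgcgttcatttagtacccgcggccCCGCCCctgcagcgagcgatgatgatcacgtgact
Bcl2l11, first start, chr2:128125888-128126037, plus strand: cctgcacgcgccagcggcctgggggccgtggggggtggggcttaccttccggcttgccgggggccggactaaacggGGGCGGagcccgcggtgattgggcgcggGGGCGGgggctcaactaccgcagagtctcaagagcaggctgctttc
Bcl2l11, start within intron 1, chr2:128127425-128127574, plus strand: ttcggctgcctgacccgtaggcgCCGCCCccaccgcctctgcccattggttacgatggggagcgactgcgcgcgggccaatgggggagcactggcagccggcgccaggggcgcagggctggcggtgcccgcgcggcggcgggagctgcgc
Bbc3, chr7:16310281-16310430, plus strand: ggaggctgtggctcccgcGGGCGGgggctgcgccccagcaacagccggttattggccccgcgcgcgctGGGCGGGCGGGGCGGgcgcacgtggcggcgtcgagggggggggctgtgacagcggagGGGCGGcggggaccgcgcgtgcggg

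All of these 6 windows held a GC box. None of the 6 windows held a base of a peak in either list, and the start peaks lay beyond them, within the genes. Of the 15 such windows before RefSeq starts of 9 of the genes (Pmaip1 was not included), 4 held peak bases in the control list and 2 in the asthmatic list.

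Over the full 300 bases of those 15 promoters (250 before to 50 after the start), the GC content ran from 49.3% to 78%, against a median of 52.7% over 32851 RefSeq promoters, and the number of CpG dinucleotides from 1 to 44, against a median of 7. A GC box stood in 10 of the 15, in 7 of the 9 genes, and in 35.7% of all promoters. A further 6 motifs were searched on both strands. The FOXO core TGTTTAC was found in 2 promoters, at Bcl2l11 and at Bbc3, and in 3.65% of all promoters. Pmaip1, which like these genes had a start peak in the control list alone, was not searched. The start behind the Bbc3 match had no peak within 1000 bp in either list. Both matches are shown with 10 bases on each side and the motif in capitals.
Bcl2l11, chr2:128125801-128125827, plus strand: agacactaggGTAAACAcgccggggtg
Bbc3, chr7:16310084-16310110, plus strand: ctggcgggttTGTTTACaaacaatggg

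The match at Bcl2l11 began at base -227 from the start and the match at Bbc3 at base -167 from a RefSeq start at 16310261. The ETS core CCGGAAG was found in 3 promoters (Bcl2l1, Bcl2l11 and Mcl1), and in 8.86% of all promoters. TATAAA, TGACGTCA (CRE), TGACTCA (AP-1) and AGAACA (the core of a glucocorticoid receptor site) were found in none of the 15, and in 13.6%, 1.79%, 5.20% and 19.0% of all promoters. These are matches of letters, and no binding was measured.

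A peak within 1000 bp of a transcript start, called a start peak below, was present at all 10 genes in the offspring of control mothers and at 7 of the 10 in the offspring of asthmatic mothers. With the 5′ end of each gene in place of all its starts, these counts were 9 and 7, and Bbc3 had no start peak in either list. In the full asthmatic list, the 3 genes without one, Bcl2l11, Pmaip1 and Bbc3, all encode BH3-only proteins. Bid and Bad, the other BH3-only genes, had a start peak in both lists, as had the 3 guardians and both effectors. Bcl2l11, Pmaip1 and Bbc3 also had the weakest start peaks of the 10 genes in the control list. Their highest −log10 q, the caller's measure of strength, was 3.25 to 8.84, and at the other 7 genes it was 9.40 or more. Role and strength were not tested apart. Which genes had a start peak in one list alone changed with the 10000 strongest peaks of each list. There, Bcl2l11, Pmaip1 and Bbc3 had a start peak in neither list. Bax, Bak1 and Bad had one in the control list alone and Bcl2 in the asthmatic list alone. Among all protein-coding genes 51% had a start peak in the control list and 42% in the asthmatic list. Of genes with a start peak in the control list, 19.1% had none in the asthmatic list, beside 3 of the 10 here (30%, exact Clopper-Pearson 95% interval 6.67 to 65.2%). The background lies well inside that interval, so the loss of 3 of 10 is not set apart from that of other genes. In the other direction, 1.69% of genes with a start peak in the asthmatic list had none in the control list, and no gene of the 10 was among them.

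**Figure D1:**
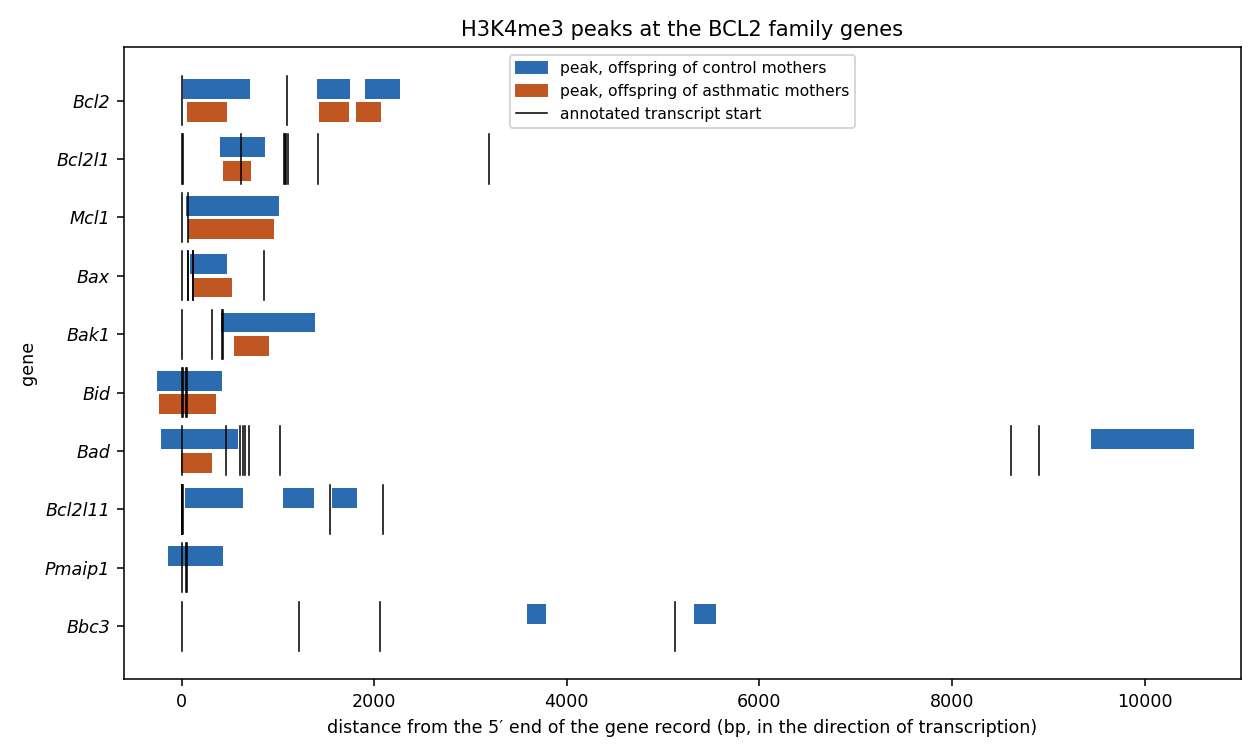
H3K4me3 peaks (bars) at the 10 genes, by distance in bp from the 5′ end of the gene record along the direction of transcription, with blue bars for offspring of control mothers, orange bars for offspring of asthmatic mothers and black lines for annotated transcript starts. Bars of both colours stand at 7 genes, and Bcl2l11, Pmaip1 and Bbc3 have blue bars alone; a peak of the asthmatic list 21729 bp into Bcl2 lies outside the range drawn.

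The 10 genes held 16 peaks in the control list and 10 in the asthmatic list, of which 15 and 9 were start peaks. Every one of the 9 start peaks in the offspring of asthmatic mothers overlapped a peak of the control list by at least 1 bp (100%, 66.4 to 100%), and 9 of the 15 in the offspring of control mothers overlapped one of the asthmatic list (60%, 32.3 to 83.7%). Over all start peaks these shares were 95.6% and 70%. With an overlap of at least 50% of both peaks in place of 1 bp, the shares at the 10 genes were 66.7% in the asthmatic list and 40% in the control list, and this share was not computed over all start peaks.

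Widths were compared after joining peaks at most 1000 bp apart, and the width at a gene is the span of the widest joined stretch that holds a start peak. Each width was also ranked among protein-coding genes with a start peak in the same list, where 100 is the widest, since the lists differed throughout. The median start width over all genes was 663 bp in the control list and 409 bp in the asthmatic list. Of the 9064 genes with both, 92.2% were wider in the control list, and the median ratio was 1.51.

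Bcl2, the guardian named after the lymphoma in which it was found, carried the widest mark of the 10 genes once its peaks were joined. It spanned 2258 bp in the offspring of control mothers (chr1:106712003-106714260) and 2006 bp in the offspring of asthmatic mothers (chr1:106712209-106714214), a ratio of 1.13. Among all genes with a start peak this was percentile 99.7 in the control list and 99.9 in the asthmatic list, near the top of both lists. Its widest single peak was 701 bp in the control list, below the single peaks of Bad, Bak1 and Mcl1, and 411 bp in the asthmatic list, below those of Mcl1 and Bid. With peaks of −log10 q of at least 5 alone, Bcl2 was 1732 bp wide in the control list and 2006 bp in the asthmatic list, which turns its direction. Each list had 3 peaks there, in the same order along exon 1: one over the untranslated first part of the exon, one over the coding part, and one at the end of the exon and the beginning of intron 1. The nearest start of another gene, Kdsr, was 45423 bp or more away from the control peaks. By width in both libraries, the genes most like Bcl2 among 9063 others were Hist1h2ai, Hist1h2bl and Hist1h3h, with 2146 and 2044 bp each (sum of absolute log2 differences 0.10). All of them share one stretch of peaks in a histone gene cluster.

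Mcl1, which encodes a short-lived guardian that is rapidly degraded, had 1 peak in each list, running from exon 1 into intron 1 and, in the control list, exon 2. The peak was 956 bp wide in the offspring of control mothers (chr3:95658839-95659794) and 891 bp in the offspring of asthmatic mothers (chr3:95658859-95659749). The ratio was 1.07, and the percentile was 76.4 in the control list and 89.2 in the asthmatic list. Both peaks were dense in CpG, with 12.4 and 12.8 per 100 bp, the highest of the genes with a peak in both lists.

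Bcl2l1, whose main product is BCL-XL, had a narrower mark than the other guardians. Its peak, in intron 1 of the longest coding transcript and over the start of a shorter one at 152831112, was 460 bp wide in the control list (chr2:152830867-152831326) and 291 bp in the asthmatic list (chr2:152831010-152831300). The ratio was 1.58, close to the median ratio of all genes, and the percentile was 25.9 and 28.0. The first start of the gene at 152831728 lay outside the peak in both lists.

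The effectors differed from each other. Bax, whose product opens the mitochondrial membrane, had a 386-bp peak in the offspring of control mothers (chr7:45466428-45466813) and a 392-bp peak in the offspring of asthmatic mothers (chr7:45466380-45466771). With all peaks used it was the only gene of the 7 that was not narrower in the asthmatic list, with a ratio of 0.985, and its percentile was 16.5 in the control list and 47.6 in the asthmatic list. Bak1, whose product acts in parallel with BAX, went from 972 bp (chr17:27027627-27028598) to 360 bp (chr17:27028103-27028462). The ratio was 2.70, and the percentile was 77.6 in the control list and 41.8 in the asthmatic list. The control peak reached farther on both sides, into intron 1 and back to the transcript starts at 27028578 and 27028587, and the asthmatic peak ended 116 bp short of the nearest start. Both Bak1 peaks also lay within 1000 bp of a start of Ggnbp1, 661 and 797 bp away, so the mark there cannot be given to Bak1 alone.

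Among BH3-only genes, Bid and Bad had a start peak in both lists. Bid, whose product is cut by caspase 8 and links death receptors to the mitochondria, had a peak across its first starts. It was 680 bp wide in the offspring of control mothers (chr6:120916429-120917108) and 582 bp in the offspring of asthmatic mothers (chr6:120916501-120917082), a ratio of 1.17. Its percentile was 52.0 in the control list and 71.3 in the asthmatic list. The 75 bases around the asthmatic summit occurred at 1 other place in the genome, whereas every other start-peak summit of the 10 genes was unique at that length.

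Bad, whose product is held inactive by growth factor signals, had 2 peaks in the control list and 1 in the asthmatic list. At the first start, the peak was 801 bp wide in the control list (chr19:6941644-6942444) and 320 bp in the asthmatic list (chr19:6941853-6942172), a ratio of 2.50. Both were within 1000 bp of a start of Gpr137, which the control peak overlapped. The second control peak, 1068 bp wide (chr19:6951300-6952367), covered intron 3, exon 4 and the end of the gene, 533 bp from the nearest coding start at 6950767, and had no counterpart in the asthmatic list within 9128 bp. It was the wider of both, and it set the start width of Bad by the rule used here, with a ratio of 3.34 and percentiles of 83.6 and 33.3.

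**Figure D2:**
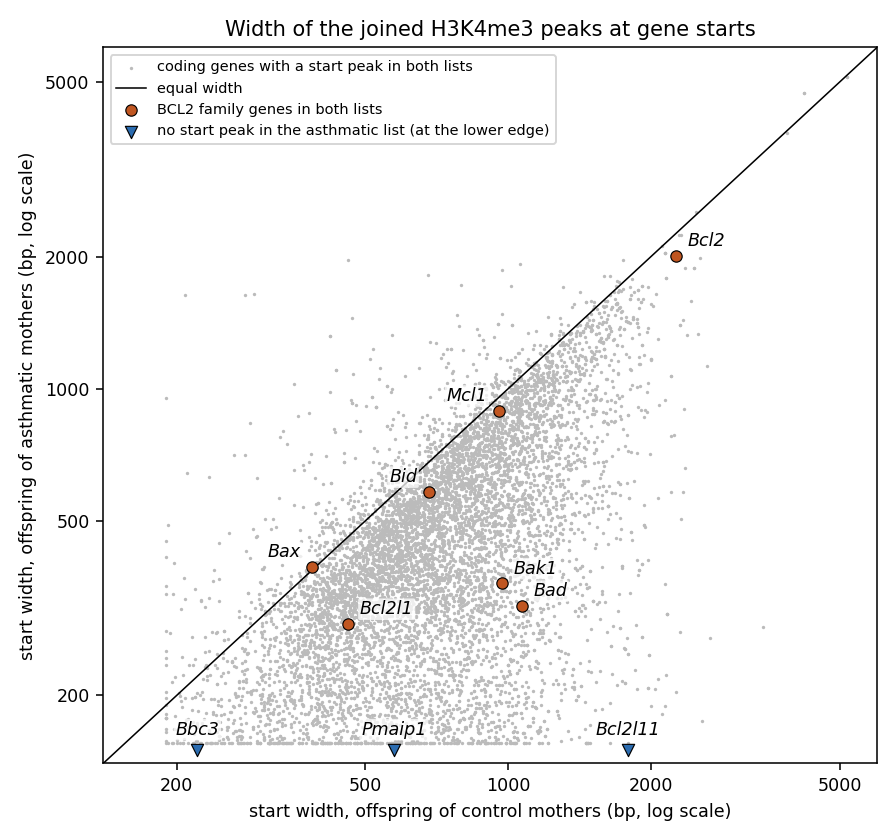
Start width in bp in the offspring of control mothers (x axis) and asthmatic mothers (y axis), both on log scales, for all coding genes with a start peak in both lists (grey) and for the BCL2 family genes (labelled). Bcl2, Mcl1, Bid and Bax lie near the line of equal width, Bak1 and Bad lie far below it, and triangles at the lower edge give the control widths of the 3 genes with no start peak in the asthmatic list.

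Of the 7 genes with both, 6 were wider in the control list, 3 (Bcl2l1, Bak1 and Bad) by at least 1.5 times, and none was at least 1.5 times as wide in the asthmatic list. Over all genes with both, 50.5% were at least 1.5 times as wide in the control list and 1.17% in the asthmatic list. The 3 of 7 (42.9%, exact interval 9.90 to 81.6%) thus included the background. The median ratio of the 7 was 1.17, beside 1.51 over all genes. It was 1.58 beside 1.55 with unjoined peaks, and 0.959 beside 1.24 with widths divided by the smallest peak width of each list, so neither its direction nor its place below all genes held under every setting. With joined peaks, Bax, Mcl1, Bcl2 and Bid lay in the lower part of all ratios (percentiles 6.78, 13.6, 18.5 and 23.1).

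Bcl2l11, which encodes BIM, had the second widest mark of the 10 genes in the offspring of control mothers once its peaks were joined, and none in the offspring of asthmatic mothers. Its widest single peak, 598 bp, was narrower than those of Bad, Bak1, Mcl1, Bcl2 and Bid. The 3 control peaks were 598, 327 and 269 bp wide and spanned 1790 bp together (chr2:128126074-128127863), percentile 98.6 by width. The first peak began 24 bp past a coding start and covered the end of exon 1, and the other two lay in intron 1 on each side of the start of a processed transcript at 128127575. Their −log10 q, the caller's measure of how far a peak stands above its background after adjustment for many positions, was 7.81, 6.04 and 7.87, and the highest of these was percentile 13.2 of genes with a start peak. The nearest peak of the asthmatic list was 73516 bp away. Of 462 genes with a control start peak of like strength (−log10 q within 0.5), 47.4% had no start peak in the asthmatic list (42.8 to 52.1%), and of the 44 that were also within 1.5 times its width, 36.4% had none (22.4 to 52.2%).

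The middle peak of Bcl2l11 touched no exon of the gene, and the 150 bases around its summit are shown as a stretch that carried the mark in one list alone. It is GRCm38 sequence on the strand of the gene, with CpG dinucleotides in capitals, and holds 19 of them at 70.7% GC.
Bcl2l11, chr2:128127186-128127335, plus strand: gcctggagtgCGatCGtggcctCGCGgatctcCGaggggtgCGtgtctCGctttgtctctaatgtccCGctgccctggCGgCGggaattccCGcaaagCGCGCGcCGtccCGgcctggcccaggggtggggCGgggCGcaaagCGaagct

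Pmaip1, which encodes NOXA, a partner of MCL1, had 1 peak over all of its 3 starts in the offspring of control mothers. It was 574 bp wide (chr18:66458393-66458966), percentile 39.6 by width, with a −log10 q of 8.84, percentile 18.3 among genes with a start peak. The asthmatic list had no peak within 75137 bp. Of 552 genes of like strength, 35.9% had no start peak in the asthmatic list (31.9 to 40.0%).

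Bbc3, which encodes PUMA, a target of p53, carried the weakest mark of the 10. Its only start peak was 221 bp wide (chr7:16313718-16313938), percentile 2.80 by width, with a −log10 q of 3.25. It lay 201 bp from the start of a transcript with a retained intron and 3263 bp from the nearest coding start. A further control peak of 202 bp in intron 1 and exon 2 (chr7:16311979-16312180, −log10 q 4.25) lay 1337 bp from any start. The starts of its coding transcripts had no peak in either list. Of 48 genes with a control start peak as weak, 83.3% had none in the asthmatic list (69.8 to 92.5%).

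The fragments behind these peaks were derived from each peak's fold and p, which the lists hold. At the strongest start peak of each gene, the control summit held 17 to 32 fragments over backgrounds of 1.83 to 6.08, and the asthmatic summit 14 to 25 fragments over 1.58 to 3.14. Mcl1 held 32 fragments in the control list (exact Poisson 95% interval 21.9 to 45.2) and 24 in the asthmatic list (15.4 to 35.7). Bcl2 held 30 (20.2 to 42.8) and 25 (16.2 to 36.9). For these guardians the intervals overlapped widely.

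Bax held 28 fragments in the control list (18.6 to 40.5) and 14 in the asthmatic list (7.65 to 23.5), the farthest apart of the 7 genes, and their intervals overlapped too. Bak1 held 29 and 18, Bad 27 and 21, Bcl2l1 25 and 18, and Bid 22 and 14. Set over the smallest background of each list (1.83 and 1.57 fragments), the summits of all 7 genes stood higher in the control list, by ratios from 1.03 at Bcl2 to 1.72 at Bax. Over all 9064 genes the same ratio had a median of 1.40, and 93.0% of genes were higher in the control list. The direction depends on the scaling: by the authors' fold over the local background, 4 of the 7 genes were higher in the asthmatic list, as were 19.2% of all genes with both. These were Bcl2 with folds of 4.88 in the control list and 6.29 in the asthmatic list, Mcl1 with 5.29 and 6.19, Bcl2l1 with 5.13 and 5.16, and Bad with 6.36 and 6.44.

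**Figure D3:**
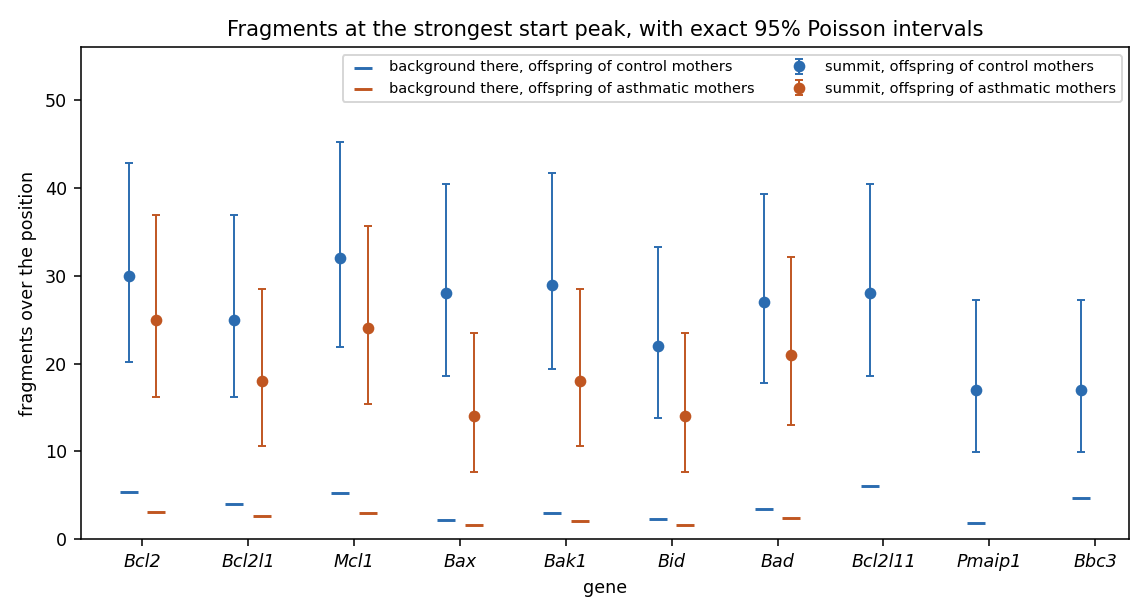
Fragments at the summit of the strongest start peak (points, with exact 95% Poisson intervals that cover counting error only) and the caller's background at that summit (dashes), for each gene in the offspring of control mothers (blue) and asthmatic mothers (orange). The intervals of both lists overlap at each of the 7 genes with points in both, and Bcl2l11 has 28 fragments over the highest background of the 10, 6.08.

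Bcl2l11 held 28 fragments over a background of 6.08, and Pmaip1 and Bbc3 each held 17, over 1.83 and 4.73. Bcl2l11 therefore had as many fragments at its summit as Bax, over a background higher than that at Bcl2, 5.36. The fewest fragments at which a peak was listed over the smallest background were 9 in the control list and 8 in the asthmatic list. Fewer fragments than that at these 3 genes would not have been listed in the offspring of asthmatic mothers. Over a higher background more are needed, and the control background was 6.08 at Bcl2l11 and 4.73 at Bbc3. Absence from the list means below the caller's limit at this depth, not that the mark was absent.

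Ranks by strength were set beside ranks by width. By the highest −log10 q, Bcl2 stood at percentile 27.0 of start genes in the control list and 82.4 in the asthmatic list, and Mcl1 at 37.8 and 79.2. Bad went from 41.8 to 73.1 and Bcl2l1 from 21.2 to 38.0. Bax went the other way, from 76.4 to 30.7, and Bak1 and Bid differed by less than 6 percentile points, from 65.0 to 59.4 and from 36.6 to 33.9. By this measure 4 of the 7 genes ranked higher in the asthmatic list, the 3 guardians and Bad, beside 41.7% of all genes with both. By width 5 of the 7 ranked higher there, beside 52.7% of all genes, and the differences of Bcl2 and Bcl2l1 were under 10 percentile points.

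**Figure D4:**
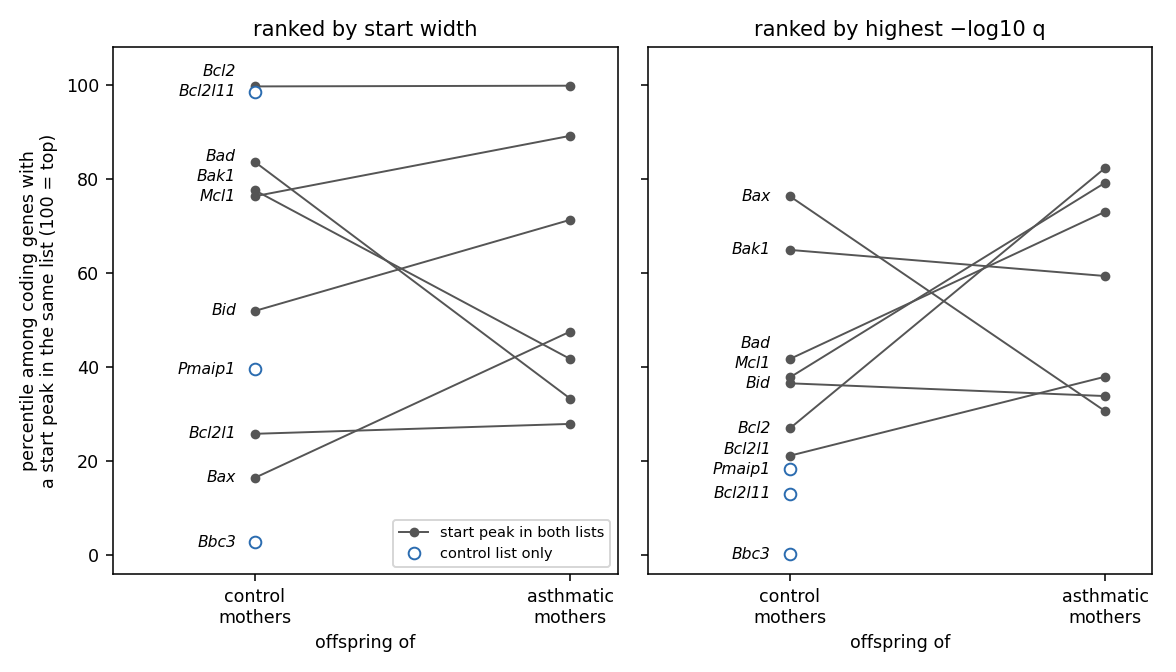
Percentile of each gene among coding genes with a start peak in the same list, by start width (left) and by highest −log10 q (right), for offspring of control and asthmatic mothers, with lines joining the values of a gene. Bcl2 stays near 100 by width and goes from 27.0 to 82.4 by −log10 q, and open circles mark the 3 genes with a start peak in the control list alone.

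Peaks away from starts were few. Over all coding genes, 15.3% had a peak in the gene body over 1000 bp from their starts in the control list and 17.8% in the asthmatic list, and of the 10 genes 1 had one in each list. In the control list this was the second Bbc3 peak given above. In the asthmatic list it was a 162-bp peak in intron 1 of Bcl2, 20634 bp from the nearest start, with 13 fragments at its summit. All of its bases were repeat-masked, and the 75 bases around its summit had 1951 other copies in the genome, so reads there cannot be placed with certainty. Its sequence is shown for contrast with the CpG-rich peak of Bcl2l11, with CpG in capitals, on the strand of Bcl2, and it holds 1.
Bcl2, chr1:106692384-106692545, minus strand: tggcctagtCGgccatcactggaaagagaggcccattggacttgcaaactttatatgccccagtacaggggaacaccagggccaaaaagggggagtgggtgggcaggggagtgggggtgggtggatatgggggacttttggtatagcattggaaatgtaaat

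The start peaks of the 10 genes had a median GC content of 66.6% in the control list and 66.9% in the asthmatic list, and none had over 50% repeat-masked bases. Their summits lay from -314 to 1051 bp from the nearest start in the control list and from -162 to 857 bp in the asthmatic list, where a positive value is downstream, and 13 of 15 and 7 of 9 were downstream of it.

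Other genes of the pathway were taken from fixed lists. Of 15 further family genes, 6 had a start peak in the control list and 5 in the asthmatic list. The difference was Bmf, with 437 bp in the control list. The widest in the control list were Bnip3l, which encodes a receptor for the removal of mitochondria, with 971 bp against 532 bp in the asthmatic list, and Bcl2l12, with 907 and 172 bp of a stretch that is also at a start of Irf3. No start peak was listed in either library at Bcl2a1a, Bcl2a1b, Bcl2a1d, Bcl2l2, Bcl2l10, Bok, Hrk, Bcl2l14 or Bcl2l15, and the Bcl2a1 genes are near-identical copies that share reads. Both shares lie below the 51% and 42% of all coding genes.

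Downstream of the mitochondria, all 13 genes of the death pathway had a start peak in the control list and 12 in the asthmatic list. The one without was Aifm1, a mitochondrial death factor, with 293 bp in the control list. Apaf1, the scaffold on which caspase 9 is activated, had 1350 bp in the control list and 1281 bp in the asthmatic list, whereas Htra2, a mitochondrial protease, had 1276 and 254 bp. Both stretches are also at starts of neighbouring genes, Ikbip and Aup1, and cannot be given to Apaf1 or Htra2 alone. All 5 genes for inhibitors of apoptosis (IAPs) had a start peak in both lists, and the widest were Birc3, with 1345 and 429 bp, and Birc2, with 1090 and 248 bp.

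On the death receptor side, 8 of 9 genes had a start peak in the control list and 7 in the asthmatic list. Tnfrsf1a, the TNF receptor, had 776 bp in the control list and no start peak in the asthmatic list, and Casp8, the caspase that cuts BID, had 901 and 864 bp. Among 12 regulators of the family, all had a start peak in the control list and 10 in the asthmatic list. Ddit3 and Myc, which encode the stress factor CHOP and a growth factor-driven transcription factor, had 265 and 1178 bp in the control list alone. Foxo1, a transcription factor known to act on Bcl2l11, had 1716 and 341 bp, and Fbxw7, part of a ubiquitin ligase that targets MCL1, had 1631 and 1388 bp.

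The median width ratios of these lists were 1.83 for the further family genes, 1.25 for the death pathway, 2.39 for the IAPs, 1.74 for the death receptor genes and 1.40 for the regulators, beside 1.17 for the 7 of the 10 genes with both and 1.51 for all genes, all with joined peaks. In none of the 5 lists did a gene have a start peak in the asthmatic list alone. The genes with a start peak in the control list alone were 1 of 6 further family genes, 1 of 13 in the death pathway, 0 of 5 IAPs, 1 of 8 death receptor genes and 2 of 12 regulators, beside 19.1% of all control start genes, and nothing is read from these counts.

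**Figure D5:**
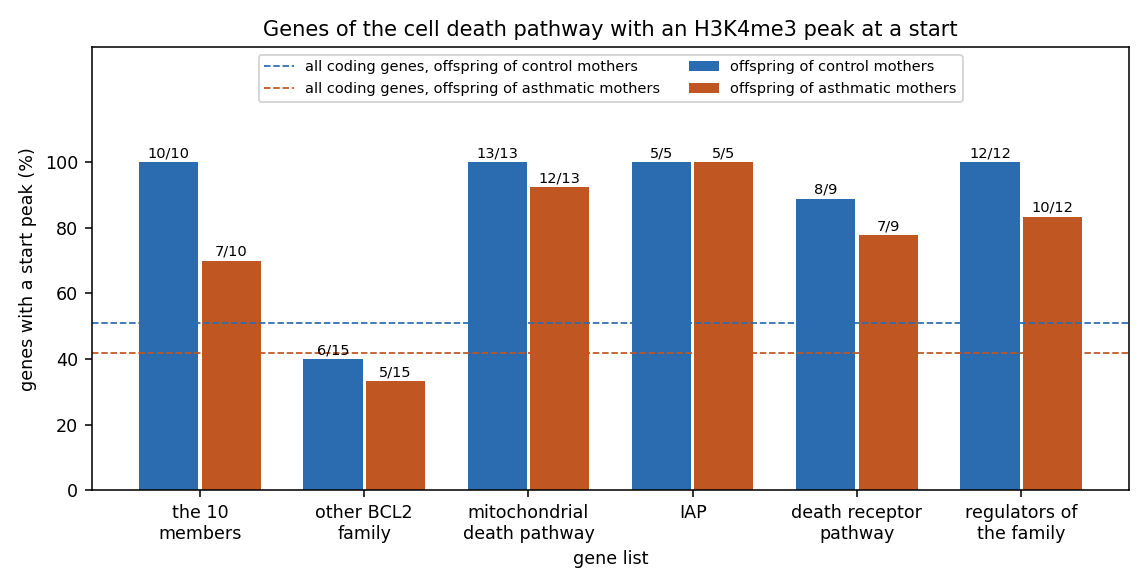
Share of genes in each list with an H3K4me3 peak within 1000 bp of a transcript start, in percent, for offspring of control mothers (blue bars) and asthmatic mothers (orange bars), with counts above the bars and dashed lines for all coding genes (51% and 42%). The asthmatic bar is the lower or equal one in every list, from 7 of 10 against 10 of 10 for the genes described here to 5 of 5 in both for the IAPs.

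The label of the cells was checked against markers. Of 12 ILC2 markers, 9 had a start peak in the control list and 6 in the asthmatic list, with Gata3, Il7r and Il5 in the control list alone and Icos, Klrg1 and Il13 in neither. Beside the 51% and 42% of all coding genes, the 6 of 12 in the asthmatic list was near the background, and the 3 of 9 without an asthmatic start peak stands beside 19.1% of all control start genes. Of the defining markers of T cells, B cells, macrophages, neutrophils and fibroblasts none had a start peak in either list. In the control list alone, 2 of 5 epithelial markers (Epcam and Cdh1) and 1 of 5 endothelial markers (Kdr) had one. The sort was gated on CD45+ cells, and the −log10 q in the control list was 14.7 at Epcam, 8.98 at Cdh1 and 3.84 at Kdr. Whether such cells had a part in the 3 BCL2 family genes found in the control list alone was not tested. Since H3K4me3 is read from all cells of a library, fewer cells with the mark and less of it per cell cannot be told apart.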

How the data were processed

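H3K4me3 CATCH-seq peak lists of lung ILC2s were analysed, 1 library per group. Per the study's methods and processing notes, the authors trimmed the reads (Trim Galore, cutadapt), aligned them to mm10 (GRCm38) with Bowtie2 and removed duplicates. The study's reporting summary says that the ChIP-seq data were not peak-called, yet a list was deposited for each library. The caller behind these lists, its threshold and any use of the input library are not given in the sources used here. Each deposited peak has a score, the authors' fold (a ratio of summit signal to background), and a −log10 p-value and −log10 q-value by the authors. The smallest −log10 q was 2.02 in the control list and 2.01 in the asthmatic list. These values are not scaled between libraries and were used within each list, except that the folds of start peaks were also set side by side.

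Members and lists were chosen with earlier results of these data known. The genes named were the 10 members, genes of the 5 further lists with a start peak in one list alone, the 2 widest of each list in offspring of control mothers, and the 3 genes closest to the widest member in both widths. Also named were the further family genes with no start peak in either list, neighbouring genes and cell type markers. Peaks were counted at a start within 1000 bp, joined where at most 1000 bp apart, and taken as shared at 1 bp of overlap. A width was called greater at 1.5 times. Fragments were solved from fold and −log10 p with a Poisson model and 1 added to signal and background. They came out whole within 0.001 in −log10 p for 100% of peaks, and they are derived, not the authors', and assume calling without a control. The lists held 42126 peaks (median 21 fragments at the summit) and 51610 peaks (median 18). The smallest background was 96.1 and 100.4 fragments per 10 kb. This scale rests on taking the smallest peak width, 190 and 156 bp, as the fragment length. Intervals are exact (Clopper-Pearson or Poisson, 95%) and cover counting error only. No test between libraries was made. On simulated data 500 of 500 summits and 100 of 100 widths were recovered. The summits were simulated with the same Poisson model, so this checks the arithmetic and not whether the caller used that model. Under an alternative, a count was taken as unchanged within 1.5 times, a median ratio within 1.1 times on the same side of 1, a median percentile within 10 points, and a share within its interval. Promoters came from RefSeq (GRCm38.p6). Python 3.11.15, numpy 2.4.6, pandas 2.3.3, scipy 1.17.1, matplotlib 3.10.9 and samtools 1.23.1 were used.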

Additional observations from a re-analysis of the deposited data

How the results depend on the processing

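No paired analysis was possible because each group had 1 library, and for the same reason no library could be left out. Of 57 alternative values under 14 settings, 37 stayed within their limits. Restricting both lists to the 10000 peaks of highest −log10 p left 4 of the genes with a start peak in the control list and 2 in the asthmatic list, with median width percentiles of 82.5 and 57.9, shared shares of 25% and 50%, and 0 and 0 peaks away from starts. Bcl2 then had a width in the asthmatic list alone (302 bp), Bax, Bak1 and Bad in the control list alone, and Bcl2l11, Pmaip1 and Bbc3 in neither. With −log10 q of at least 5, the median width percentile was 78.0 in the control list (64.2 in the report's setting), and 0 peaks lay away from starts there. Bbc3 dropped out, which left 9 genes in the control list, and Bcl2 was wider in the asthmatic list (1732 and 2006 bp). Peaks away from starts numbered 3 in the control list and 2 in the asthmatic list at 500 bp, and 0 in the control list at 2000 bp. Without repeat-masked peaks the asthmatic list had 0.

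The median width ratio of 1.17 was 1.58 with unjoined peaks and 1.47 by covered bases (1.55 and 1.58 over all genes). It thus lay above all genes with unjoined peaks and below them by covered bases. The rank of Bcl2 as the widest gene also depended on joining. Divided by each list's smallest peak width, the median width ratio reversed to 0.959, against 1.24 over all genes. By −log10 q the median percentile was 31.8 in the control list and 59.4 in the asthmatic list, and by fold 21.9 in the control list. At 14 to 32 fragments per summit, depth limits what absence from a list means.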
